A study of Mus musculus with 16 samples.

Results

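The wild-type inner ear of the newborn mouse was profiled on 4 of the 8 Affymetrix MG-U74Av2 chips of the series. The members are the 4 wild-type columns of GCRMA values among the 16 deposited columns, and the 4 dChip columns of the same chips stand beside them. RNA came from whole inner ears of 129SvEv mice at P0, the day of birth, and was pooled from several animals because each ear yields little. Chips A1 and A2 are duplicates of the wild-type pool of hybridization set A, and chips B1 and B2 are duplicates of the wild-type pool of set B, which was hybridized at another time. The remaining 4 chips hold a COUP-TFI-/- pool of the same strain and age in each set, and they served only as the second pool of each set. In those chips the transcript of the deleted gene, Nr2f1, was between 4.68 and 5.27 on the GCRMA log2 scale, against 7.74 to 8.83 in wild-type, so the labels and this gene go together. The levels described are chip signals of 8251 genes that have a single symbol in the platform annotation.

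The newborn inner ear is a small fluid-filled epithelial labyrinth inside a cartilage capsule. Its epithelium holds hair cells, which turn vibration into electrical signals, supporting cells around them, and the stria vascularis, which secretes the potassium-rich endolymph. Neurons of the spiral and vestibular ganglia, with their Schwann cells, connect it to the brain, and mesenchyme, blood vessels, developing bone and the small muscles of the middle ear lie close to it. In a whole-organ RNA pool the contribution of fewer cells of a type and that of less RNA per cell cannot be told apart.

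The 4 chips gave closely similar profiles. The correlation across probe sets, given as a description since probe sets do not replicate a sample, was 0.997 between duplicates in both sets and 0.984 to 0.987 between chips of different sets. The median absolute difference was 0.08 log2 units between duplicates of set A, 0.09 between those of set B, and 0.16 between the 2 wild-type pools. Only 62 genes (0.751%) differed between the pools by more than 1 log2 unit. The 3' minus 5' difference of the Affymetrix Gapdh control sets, a measure of RNA integrity, was 0.14 to 0.21 on the 4 chips. That of the beta-actin controls was 0.68 to 0.82, that of pyruvate carboxylase 0.64 to 0.76, and that of the transferrin receptor, a dimmer control, 1.25 to 1.54. With 2 wild-type pools the precision of a level is limited by their number, and the labels do not say how many animals each pool held. A limma test over both genotypes, described in full after the levels, called 25.8% of probe sets different between the sets, 13.6% higher in set A and 12.2% higher in set B, so a gene whose chips separate by set is not rare here.

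The median gene had a GCRMA level of 7.60, the top 10% of genes were above 9.70, and the range ran from 3.01 to 14.3. A gene was given by its brightest probe set, and its place is stated as a percentile, the share of other genes with a lower mean over the 2 wild-type pools. The brightest of the 4 yeast control sets, which should find no mouse transcript, had a mean of 4.40, and 7920 genes (96.0%) were above it. That bar is low. Among 41 genes typical of organs outside the dissection, such as liver, pancreas, testis, lens and retina, the upper quartile stood at 7.47, and 4392 genes (53.2%) were above this second level.

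A percentile describes the signal of a probe set and not the number of transcript molecules. For 2073 genes with more than 1 probe set, the highest and lowest sets differed by a median of 1.70 log2 units, and by more than 1 unit for 69.5%. Igf2, which encodes a fetal growth factor, had sets at 14.18 and 6.04. Rps4x, a ribosomal protein gene, had 5 sets between 5.03 and 13.13. The order of neighbouring genes is therefore a property of the chip. Where a leading gene rests on a set whose name ends in _r_at, _f_at, _g_at, _i_at or _s_at (suffixes that Affymetrix gives to sets with relaxed probe rules or with probes shared among transcripts), this is said beside it.

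**Figure D1:**
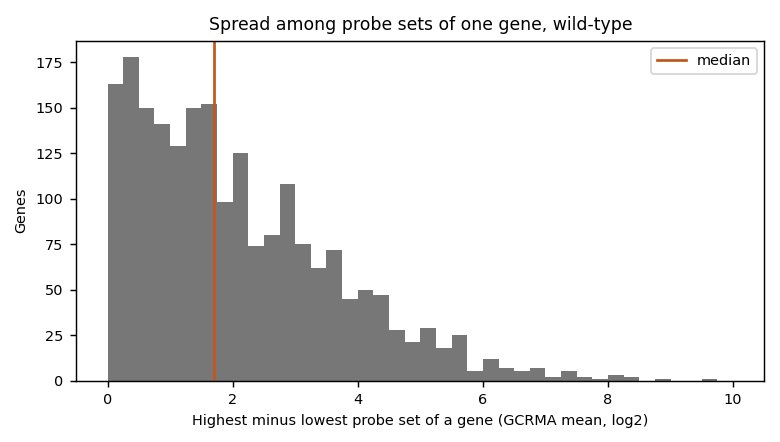
Number of genes (y axis) against the difference between the brightest and the dimmest probe set of the same gene in wild-type (x axis, log2 units), for the 2073 genes with more than 1 probe set. The line marks the median of 1.70 log2 units, and the tail reaches past 9 units.

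The strongest signals came from the translation machinery, fetal growth factors, globin, cytoskeleton and fibrillar collagen. The 30 genes with the highest wild-type mean took 9.19% of the summed linear signal, and 14 of them encode cytosolic ribosomal proteins. Of the 30, 24 were also among the 30 highest by dChip. Rpl41, a small ribosomal protein of the large subunit, led with 14.26, 14.27, 14.43 and 14.41 on chips A1, A2, B1 and B2 (an _f_at set). Igf2 followed with 14.19, 14.19, 14.19 and 14.14 (a _g_at set). Hba-a1, the adult-type alpha globin of red cells, read 14.381, 14.261, 13.953 and 13.999. Eef1a1, the elongation factor that brings tRNA to the ribosome, read 14.021, 14.039, 13.951 and 14.004. The chips of the sets did not overlap for Rpl41, which was higher in set B, or for Hba-a1 and Eef1a1, which were higher in set A, whereas those of Igf2 did. Globin, actin and tubulin genes have near-identical copies whose transcripts can share probes, so the symbol stands for the family there.

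Below these 4 came Tpt1 at 13.56, a growth-related protein also called TCTP, and Gnas at 13.56, the imprinted gene of the stimulatory G protein alpha subunit (an _s_at set). The tubulin genes Tuba1c and Tuba1a stood at 13.23 and 13.14 (an _f_at and an _i_at set), and Actg1, cytoplasmic gamma actin, at 12.73. Col1a1, a chain of the main collagen of bone and connective tissue, read 12.69, 12.84, 12.84 and 12.71, with hybridization sets A and B in the same range. The other plain probe set of Col1a1 was lower, at 10.64. App, the amyloid precursor protein, stood at 12.70. Sprr1b, a cornified envelope protein of squamous epithelium, reached 12.79, but on an _r_at set 8.49 log2 units above the other set of the gene. Beta-actin, Actb, shows the same limit from the other side, since its single-symbol sets gave at most 7.39 while the Affymetrix beta-actin controls, which carry no part in these ranks, averaged 12.19 to 13.07.

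**Figure D2:**
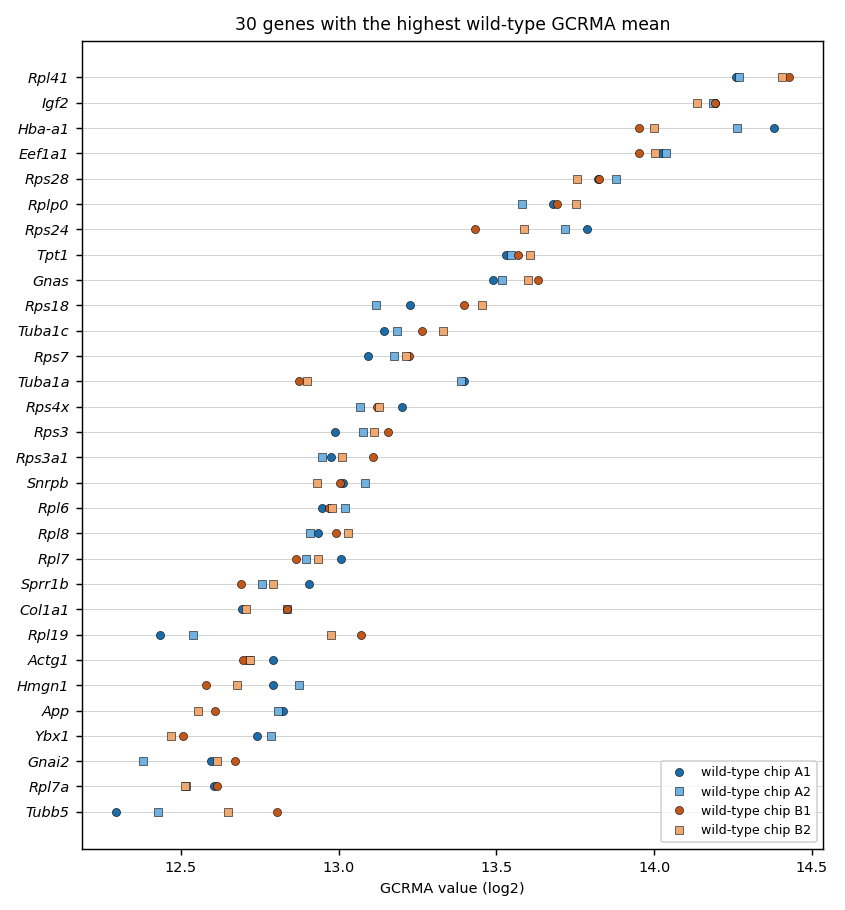
GCRMA values (x axis, log2) of the 30 genes with the highest wild-type mean, with 1 point per wild-type chip (set A in blue, set B in orange, circles for chip 1 and squares for chip 2). The 4 chips lie within 1 log2 unit for every gene, while the genes span 12.54 to 14.34.

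By gene group, cytosolic ribosomal proteins, genes of basic cell upkeep, respiratory chain subunits and fetal or imprinted growth genes held the highest positions. Of 35 cytosolic ribosomal protein genes and relatives on the chip, 24 were above the median gene and 19 in the top 10% of genes, where 10% of all genes lie. The other 11 read lower, down to Rps15 at 4.66 and Rps20 at 5.51, although both proteins belong to the same particle as those of the leading genes. The 71 respiratory chain and ATP synthase subunits had a median percentile of 90.7, led by Atp5md at 11.90 and Cox6a1 at 11.61, both on _f_at sets. Among 14 housekeeping genes the median percentile was 97.8.

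Of 19 fetal and imprinted growth genes, 11 were in the top 10%. Cdkn1c, an imprinted inhibitor of cyclin-dependent kinases, read 12.49, 12.31, 12.48 and 12.53. Peg3, an imprinted zinc finger gene, read 11.64, 11.86, 11.60 and 11.57. Dlk1, a Notch-like membrane protein of immature cells, read 11.29, 11.30, 11.98 and 11.94. The sets overlapped for Cdkn1c and stood apart for Peg3, slightly higher in set A, and for Dlk1, higher in set B. The other probe sets of Peg3 disagreed on the size of its difference. Their wild-type pool means in sets A and B were 10.51 and 8.87 on a plain set, and 8.305 and 8.285 on an _f_at set. Proliferation genes stood lower, with a median percentile of 64.3 over 28 genes and 0 in the top 10%. Ccnb2, a mitotic cyclin, was at 9.61, and Top2a, which untangles DNA in dividing cells, at 7.15.

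Among the tissues, connective tissue and skeleton stood out. Of 29 genes of periotic mesenchyme and fibrocytes, 23 were above the median gene and 13 in the top 10%. Dcn, the small proteoglycan decorin, read 11.79, 11.85, 11.79 and 11.73. Igfbp2, a carrier of insulin-like growth factors, read 11.83, 11.74, 11.71 and 11.63. Eln, elastin, read 11.44, 11.49, 12.0002 and 11.9973. Pou3f4, a transcription factor of otic mesenchyme whose loss causes deafness, was at the 89.6th percentile with 9.94, 9.90, 9.44 and 9.37. Decorin did not separate the sets, whereas elastin, on its brightest probe set, was higher in both set B chips. A second plain probe set of elastin was far dimmer and leaned the opposite way. Its wild-type pool averages were 7.54 (set A) and 7.39 (set B). Pou3f4 was higher in both set A chips. Prrx1, another mesenchymal transcription factor, was much lower on its set at 6.29.

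Cartilage genes stood close to those of mesenchyme, with 17 of 22 above the median gene, 8 in the top 10% and a median percentile of 86.0. The chains of collagen IX, which coats the thin fibrils of hyaline cartilage, were all in the top 2%. Col9a1 read 11.39, 11.39, 12.22 and 12.22, Col9a3 11.17, 11.14, 12.16 and 12.28, and Col9a2 10.64, 10.97, 11.88 and 11.78. Matn1, the cartilage matrix protein matrilin-1, read 10.82, 10.75, 11.64 and 11.46. Acan, the aggregating proteoglycan that gives cartilage its resilience, read 10.82, 10.96, 11.32 and 11.16. In each of these 5 genes both set B chips were above both set A chips. Mgp, matrix Gla protein, an inhibitor of calcification, stood at 11.91 (an _s_at set). Col2a1, the main collagen of hyaline cartilage and a defining marker, was only at 6.68 and the 29.5th percentile, on its single _s_at set, so this set and the other cartilage genes go against each other. Col10a1, of hypertrophic cartilage, was at 5.67.

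Bone and general collagen genes were also high. Sparc, osteonectin, which binds collagen and calcium, read 11.64, 11.47, 12.19 and 12.06. Ibsp, bone sialoprotein of mineralizing matrix, read 10.28, 10.32, 10.15 and 10.03. Dmp1, a matrix protein of osteocytes, was at 5.82. Of 22 further collagen genes 10 were in the top 10%, with Col1a2 at 12.50, Col3a1 at 11.22 and the basement membrane chain Col4a1 at 10.28. Genes of osteoclasts, the bone-resorbing cells, had a median percentile of 59.1 over 10 genes. Ctsk, the protease that digests bone collagen, read 9.54, 9.77, 9.61 and 9.39, and Calcr, the calcitonin receptor, was at 4.40. Ibsp and Ctsk thus differed by 0.15 to 0.21 between the wild-type pools, against 0.57 for Sparc.

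**Figure D3:**
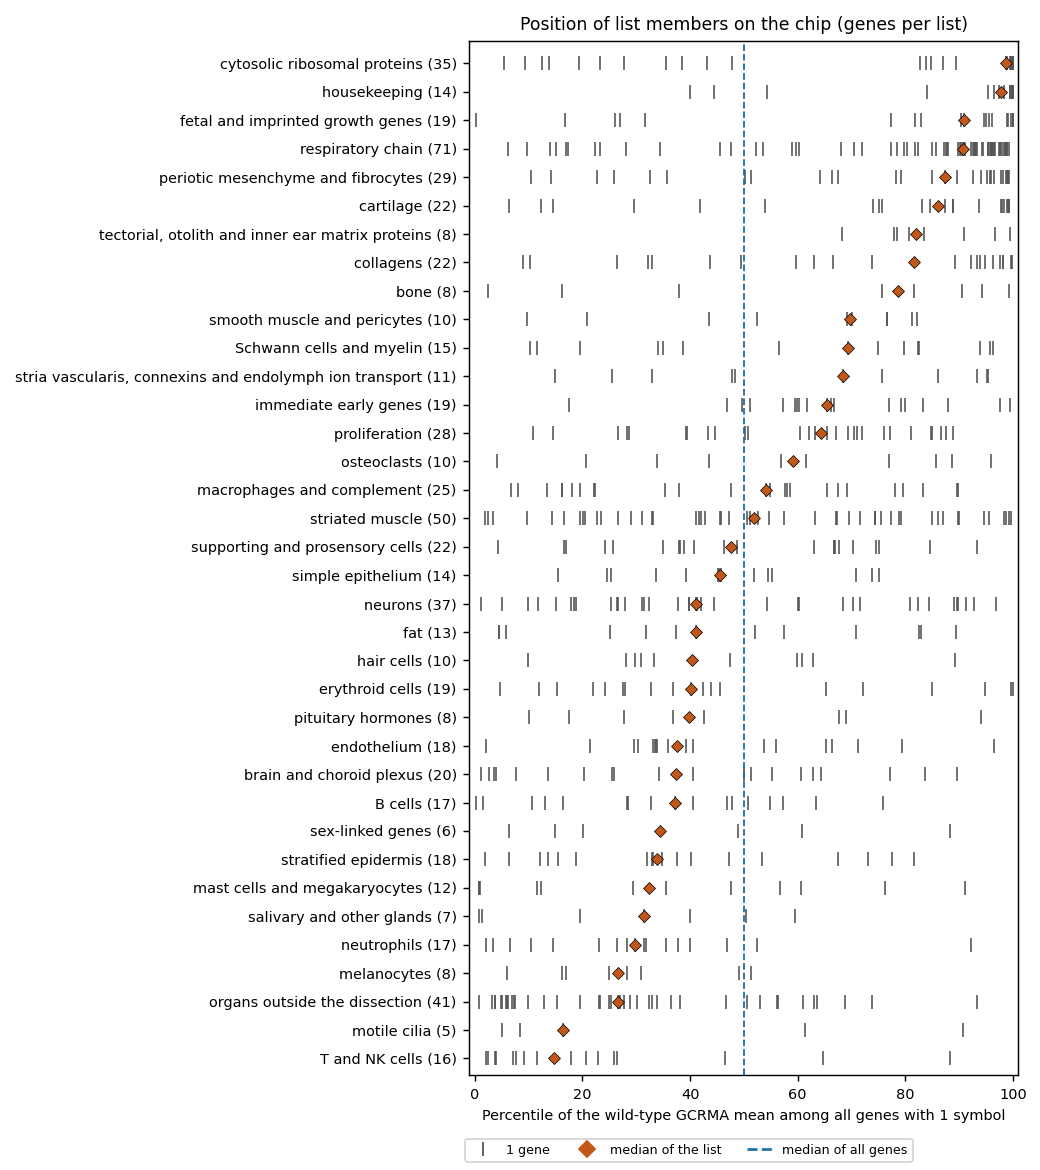
Percentile of each list member (ticks) among the 8251 genes, by wild-type GCRMA mean, with the list median (diamonds) and the median of all genes (dashed line); lists are ordered by their median and the number of genes on the chip is in parentheses. Ribosomal, growth, mesenchyme, cartilage and inner ear matrix genes lie to the right, and T and NK cell genes and genes of organs outside the dissection to the left.

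Genes of the extracellular gels of the sensory organs were all well placed. All 8 genes of tectorial, otolith and inner ear matrix proteins on the chip were above the median gene and above the level of 7.47. Oc90, otoconin-90, the main protein of the crystals that load the balance organs, ranked 50th of all genes with 12.09, 12.26, 12.02 and 11.83. Its dChip intensities were 5558, 5674, 5143 and 4901, the 99.4th percentile in both normalizations. Tecta and Tectb, the tectorins of the membrane over the cochlear hair cells, read 9.22, 9.20, 8.74 and 8.84, and 9.23, 9.09, 8.59 and 8.57. Coch, cochlin, a matrix protein of fibrocytes, read 8.75, 8.91, 7.97 and 7.81. Col11a2, a collagen of both tectorial membrane and cartilage, read 10.24, 10.36, 11.25 and 11.18. The set A chips were above the set B chips for Oc90, Tecta, Tectb and Coch, and below them for Col11a2.

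Hair cell genes did not reach comparable positions. Of 37 genes on the list only 10 are on the chip, and Pou4f3 and Otof, a pair of the markers, are not among them. Their median percentile was 40.4, and 0 were in the top 10%. Myo7a, the unconventional myosin of hair bundles, read 8.17, 8.14, 7.96 and 7.91, the 60.8th percentile. Calb2, calretinin, read 8.17, 8.12, 8.17 and 8.10. Atoh1, the transcription factor that specifies hair cells, read 6.48, 6.60, 6.78 and 6.91, below the level of 7.47 set by genes of other organs. Lmo7 led the list at 9.63 and is also expressed in other epithelia and in muscle. The median over all 10 lies below that of all genes, and above the 26.6 of the organs outside the dissection.

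Supporting and prosensory cell genes had a median percentile of 47.5 over 22 genes. Sox2, the transcription factor of the prosensory domain and of neural and glial precursors, read 9.39, 9.11, 8.10 and 8.03 (an _r_at set). Igfbp3, a carrier of insulin-like growth factors, led at 10.09. Fgfr3, a receptor of pillar and Deiters cells, was at 7.46 (an _i_at set), and Prox1, a nuclear marker of supporting cells, at 4.46. Nr2f1, the orphan nuclear receptor COUP-TFI, read 8.83, 8.72, 7.90 and 7.74, at the 66.8th percentile, with the sets clearly apart. Its relative Nr2f2, COUP-TFII, was at 7.21 (an _r_at set).

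Genes of endolymph secretion and of gap junctions, through which potassium returns to the stria, had a median percentile of 68.5 over 11 genes. It fell to 63.5 with dChip, to 55.4 with the median over the probe sets of a gene and to 50.4 with plain _at sets. Gjb2, connexin 26, whose mutations are a frequent cause of inherited deafness, read 10.23, 10.28, 9.91 and 9.87. Gjb6, connexin 30, its partner in the same junctions, was at 7.51. Slc12a2, the sodium-potassium-chloride cotransporter that loads the marginal cells, read 10.66, 10.83, 10.03 and 9.96. Gja1, connexin 43, which is common to mesenchyme, bone and vessels, was at 10.40 (an _f_at set). The potassium channel pair of the marginal cells stood lower, with Kcnq1 at 8.37 (an _r_at set) and Kcne1 at 7.53. Cldn11, the tight junction protein of strial basal cells and of myelin, was at 9.37. Melanocyte genes, which mark strial intermediate cells, had a median percentile of 26.6 over 8 genes, with Pmel at 7.66, Dct at 7.57 and Tyr at 4.74.

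Neuronal genes were present over a wide range. Of 37 on the chip, 15 were above the median gene and 3 in the top 10%, with a median percentile of 41.2. Tubb3, neuronal beta tubulin, was highest at 10.79 (an _f_at set). Uchl1, a ubiquitin hydrolase abundant in neurons, read 10.06, 10.27, 9.97 and 9.68. Stmn2, a microtubule regulator of growing axons, read 9.64, 9.89, 9.53 and 9.41 (a _g_at set). The neurofilament chains Nefm and Nefl read 8.25, 8.42, 7.72 and 7.67, and 7.60, 7.56, 7.21 and 7.21. Mapt, the axonal protein tau, read 10.05, 9.73, 8.63 and 8.52. In all of these but Tubb3 the set A chips were above those of set B.

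Schwann cell genes stood higher than neuronal ones as a list, with a median percentile of 69.3 over 15 genes. It was 67.5 with dChip, 56.4 with the median over the probe sets of a gene and 56.9 with plain _at sets. Neuronal genes had 48.6, 46.5 and 41.8 in the same settings. Fabp7, a fatty acid binding protein of glial precursors, read 10.65, 10.47, 10.28 and 10.38. Pmp22, a myelin protein that fibroblasts also make, read 10.16, 10.11, 10.17 and 10.16. Sox10, the transcription factor of neural crest and glia, read 9.19, 9.16, 8.94 and 9.06. Mag stood highest at 10.60, on an _r_at set 4.18 units above its other set. Genes of brain and choroid plexus, which border the dissection, had a median percentile of 37.4 over 20 genes. Ttr, transthyretin of the choroid plexus and liver, was at 9.18 and Zic1, a transcription factor of dorsal neural tissue and meninges, at 9.66, whereas the astrocyte filament Gfap was at 6.93 (a _g_at set), Gabra6, a receptor subunit of cerebellar granule cells, at 4.97 (an _s_at set) and Tbr1, of the cerebral cortex, at 4.39.

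Striated muscle gave some of the brightest tissue-specific signals, although muscle is not part of the labyrinth. Of 50 genes 27 were above the median gene and 7 in the top 10%. Acta1, skeletal alpha actin, read 12.882, 12.978, 11.998 and 11.919. Myl1, a light chain of fast fibres, read 11.87, 11.82, 11.13 and 10.97. Pvalb, the calcium buffer parvalbumin of fast fibres and of some neurons and hair cells, was at 11.83 (an _i_at set). The other probe set of Pvalb, an _f_at set, was only at 5.34. Tnnt3, fast troponin T, read 9.29, 9.29, 8.56 and 8.44. Myh8, the perinatal myosin heavy chain, read 8.10, 8.11, 6.87 and 6.63 (an _r_at set), and Myod1, a transcription factor of myoblasts, was at 7.64. The muscle list took 1.05% of the summed linear signal in the wild-type pool of set A and 0.721% in that of set B. Smooth muscle and pericyte genes had a median percentile of 69.6 over 10 genes, with Acta2 at 8.77 and Myh11 at 5.19.

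Red cell genes ranged widely, from 4.502 to 14.15. Hba-a1 and the adult-type beta globin Hbb-b2 were in the top 1%, with Hbb-b2 at 12.94, 12.79, 12.17 and 12.22. The embryonic globins were far lower on their own sets, with Hbb-bh1 at 8.24, Hbb-y at 6.57 (an _f_at set) and Hba-x at 6.23. Alas2, the erythroid enzyme that starts haem synthesis, read 9.56, 9.65, 8.93 and 9.02 (an _s_at set), while Slc4a1, the band 3 anion exchanger, was at 7.06. Over 19 erythroid genes the median percentile was 40.2. Endothelial genes had a median percentile of 37.6 over 18 genes, and of 50.4 with dChip. By GCRMA 7 of the 18 were above the median gene, and the lowest was at 4.02. Among those above it were Eng, endoglin, at 10.71, Pecam1 at 8.28 and Cdh5, the adherens junction cadherin of vessels, at 8.24.

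Among white cells, macrophage and complement genes had a median percentile of 54.0 over 25 genes, which fell to 33.8 with dChip and to 26.5 with the median over the probe sets of a gene. The complement chains C1qc and C1qa were at 9.68 and 8.94, Csf1r, the receptor for the macrophage growth factor, at 8.25, and Lyz2 at 7.10. Neutrophil granule genes had a median percentile of 29.7 over 17 genes. Csf3r, the receptor for granulocyte growth factor, led at 9.92, followed by Camp at 7.70 and Elane, neutrophil elastase, at 7.48, whereas Mpo was at 5.68. The lead of Csf3r rests on a single probe set, since its others were at 7.68 (a plain set) and 7.16 (a _g_at set). B cell genes had a median percentile of 37.1 over 17 genes, and of 34.4 with dChip. With the median over the probe sets of a gene it was 25.3, where genes of organs outside the dissection had 27.6. The pre-B cell receptor genes Igll1 and Vpreb1 were at 7.63 and 7.51, near the median gene. Rag1 led at 8.73 on an _r_at set 4.23 units above its other set.

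T and NK cell genes had a median at the 14.7th percentile over 16 genes, the lowest of the 36 lists by GCRMA, although motile cilia genes were lower with dChip and with plain _at sets. Cd3e was at 7.46, Cd3g at 4.99 and Cd8a at 4.90, and the leading gene, Zap70, rested on an _r_at set. Mast cell and megakaryocyte genes had a median percentile of 32.5 over 12 genes. Tpsb2 and Cma1, a tryptase and a chymase of connective tissue mast cells, were at 9.82 and 8.75, and Pf4, of platelets, at 5.42. Fat genes had a median percentile of 41.1 over 13 genes. Ucp1, the uncoupling protein of brown fat, read 8.68, 8.77, 8.33 and 8.10, and Adipoq, adiponectin, 7.604, 7.332, 6.996 and 6.991.

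Epithelial and glandular genes were mostly low. Simple epithelium, the type that lines the labyrinth, had a median percentile of 45.5 over 14 genes, with Krt8 at 8.62, Cdh1 at 8.47 and Epcam at 6.45. Stratified epidermis had a median percentile of 33.9 over 18 genes, with Krt4 at 9.05, Krt5 at 6.82 and Krt14 at 6.02. With dChip the order of these lists was reversed, at 39.0 for simple epithelium and 45.5 for stratified epidermis. Salivary and other glands had a median percentile of 31.3 over 7 genes, with Amy1 at 3.80. Motile cilia, which beat in the middle ear lining, had a median percentile of 16.5 over 5 genes, with Foxj1, their transcription factor, at 8.07 and Tekt1 at 4.58. Of the 41 genes of organs outside the dissection, 10 were above the median gene. Crybb2, a lens crystallin, was the brightest at 10.07 on an _r_at set 4.40 units above its other set. Alb, serum albumin, was at 6.09 and Prm1, a sperm protamine, at 4.58 (an _f_at set).

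Immediate early genes, which cells switch on within minutes of a stimulus, were mostly above the median gene, with 16 of 19 above it and a median percentile of 65.5. Jund, a constitutively expressed AP-1 member, was at 12.23, Egr1 at 8.30 and Jun at 7.65. Fos read 8.08, 8.25, 6.99 and 7.03 in wild-type, 1.16 higher in set A, while the COUP-TFI-/- pools differed by 0.06. Of 8 pituitary hormone genes, Gh had the largest difference between the wild-type pools. Gh, growth hormone, read 11.56, 11.62, 8.77 and 8.77, so the set A wild-type pool was 2.82 log2 units above the set B pool, and the COUP-TFI-/- pools differed by 0.16. Pomc and Cga, precursors or subunits of other pituitary hormones, were also higher in the set A wild-type pool, by 0.68 and 0.96 (Cga on an _f_at set). Prl, prolactin, had 7.06 as its mean and was 0.17 lower in set A.

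Because the second pool of each set is of the other genotype, the difference between sets was tested with limma on 4 pool means with genotype as a term, and its p-values rest on 1 residual degree of freedom and a prior of 14.3 shared by all probe sets. Pool of animals and time of hybridization cannot be told apart in this comparison. Of 12422 probe sets, 3205 (25.8%) differed at an adjusted p under 0.05, with 1689 (13.6%) higher in set A and 1516 (12.2%) higher in set B. With dChip the counts were 1449, 840 and 609, and 0 passed once dChip values under 16 were raised to 16, where 3861 had an unadjusted p under 0.05. Without chip A1 of COUP-TFI-/- the GCRMA count was 2046, and without chip B1 of wild-type 948 rather than 1516 were higher in set B. The counts below are to be read against these shares.

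Cartilage genes ran towards set B. Of the 22 on the chip, 16 were called higher in set B and 0 in set A. The difference was -1.24 ± 0.11 (SE) for Chad, chondroadherin, which cartilage cells use to adhere (adjusted p = 1.83e-06, limma). It was -1.06 ± 0.10 for Col9a3 (adjusted p = 1.79e-06, limma), -1.03 ± 0.10 for Col9a2 (adjusted p = 2.28e-06, limma) and -1.04 ± 0.10 for Pth1r, the receptor that paces growth plate cartilage (adjusted p = 2.31e-06, limma). On the wild-type chips Pth1r read 8.66, 8.74, 9.94 and 9.69, so the sets did not overlap. Col2a1 and Col11a1 were among the 6 genes not called. The summed signal of the list was 0.660% of all signal in the set A wild-type pool and 1.05% in that of set B. Bone genes moved less evenly, with 5 of 8 higher in set B, among them Sparc and Alpl, and Ibsp and Cdh11 higher in set A.

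Genes of stratified epidermis, keratins among them, also gave more calls towards set B, though with small differences. Of 18 genes of stratified epidermis 8 were called higher in set B and 0 in set A, including Krt5 by 0.34 and Krt14 by 0.45 over both genotypes. With dChip the Krt5 difference was 0.10 in the other direction and that of Krt14 was 0.0039. In wild-type, 4 of the 18 genes were higher in the set A pool, among them Krt10 at 6.95 against 6.80. Cytosolic ribosomal protein genes were called higher in set B in 7 of 35 and in set A in 1, and Rpl19 read 12.43, 12.54, 13.07 and 12.97. Among T and NK cell genes, which were near the bottom of the range, 4 of 16 were called higher in set B.

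Neuronal genes ran towards set A. Of 37 genes, 21 were called higher in set A and 2, Neurog1 and Syp, higher in set B. Tac1, the precursor of substance P in sensory neurons, read 7.16, 7.26, 5.90 and 5.69 and differed by 1.45 ± 0.10 (SE; adjusted p = 6.98e-08, limma). Mapt differed by 1.43 ± 0.10 (adjusted p = 1.09e-07, limma) on its brightest probe set. Its other probe sets were closer between the wild-type pools of sets A and B. They had means of 9.21 and 8.88 on a plain set and 8.13 and 7.48 on a _g_at set. Nefl and Stmn2 differed by 0.43 and 0.32. Among the 10 named genes with the largest differences towards set A were a pair of adhesion molecules found on neurons and other cells, Cntn1, contactin-1, at 1.80 ± 0.10 (adjusted p = 6.39e-09, limma) and Alcam at 1.71 ± 0.10 (adjusted p = 1.03e-08, limma). Among 15 Schwann cell genes 3 were called higher in set A and 1 was called higher in set B. The difference between the lists was not tested.

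The lists of inner ear matrix, stria and supporting cells gave more calls towards set A than towards set B, and that of simple epithelium, with 1 of 14 higher in set A and 3 in set B, did not. All 8 matrix genes of the tectorial and otolith list were called, 6 of them higher in set A and Col11a2 and Smoc2 higher in set B. Coch differed by 0.86 ± 0.10 (SE; adjusted p = 1.73e-05, limma), Tectb by 0.51 ± 0.10 (adjusted p = 0.00141, limma) and Oc90 by 0.29 ± 0.10 (adjusted p = 0.0365, limma). With dChip the Oc90 difference was 0.13 and its adjusted p 0.42 by limma. Of 11 stria, connexin and ion transport genes, 5 were higher in set A and 0 in set B, with Slc12a2 at 0.89 ± 0.10 (adjusted p = 1.73e-05, limma). Of 22 supporting and prosensory genes 7 were higher in set A, led by Sox2 at 1.15 ± 0.10 (adjusted p = 7.72e-07, limma), and 3 in set B. Hair cell genes gave 2 and 1, with Myo7a not called at 0.15 (adjusted p = 0.27, limma) and Kcnma1, a calcium-activated potassium channel of many cell types, higher by 0.94.

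**Figure D4:**
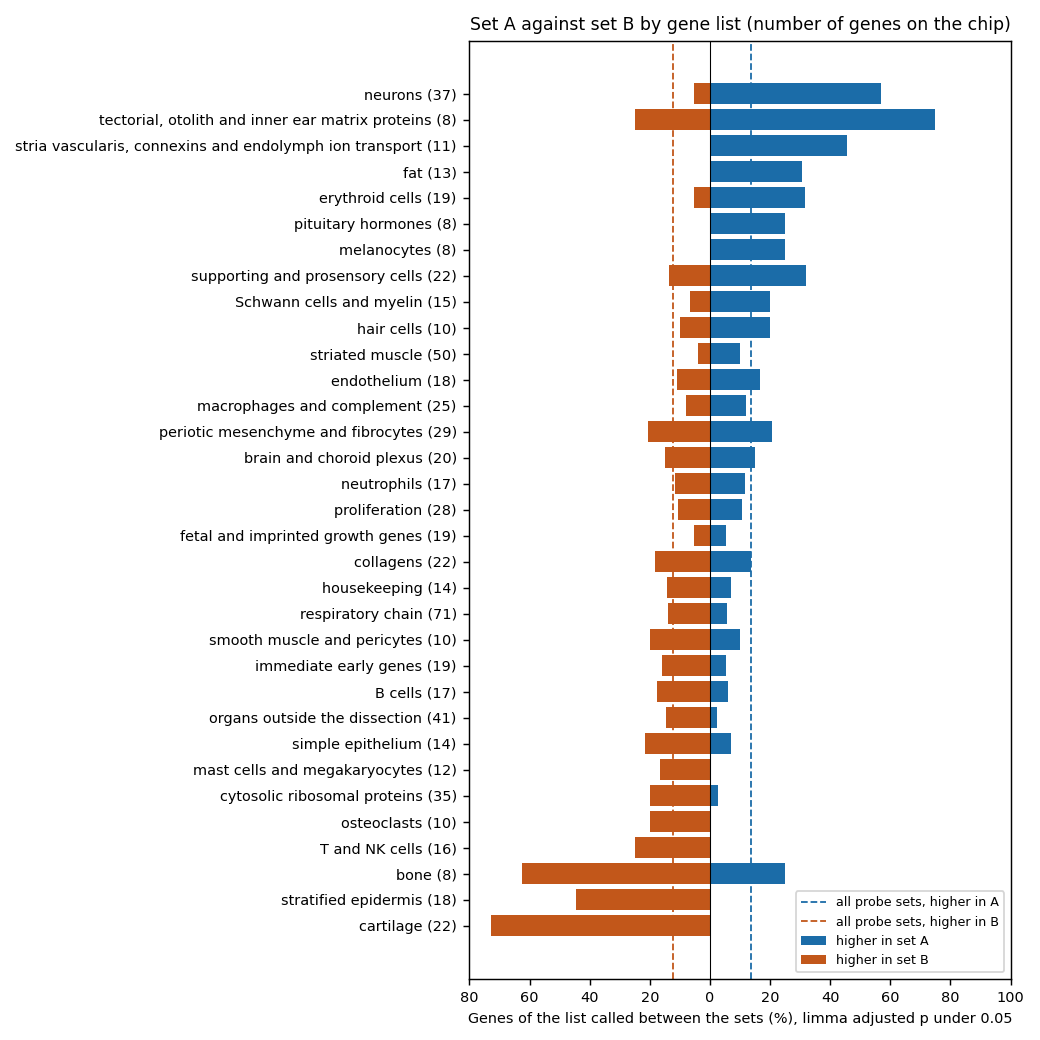
Share of the genes of each list (lists of 8 or more genes, number in parentheses) called higher in set A (blue, to the right) or in set B (orange, to the left) by limma over both genotypes, in percent, with the shares among all probe sets as dashed lines at 13.6 and 12.2. Neuronal genes extend to the right and cartilage genes to the left.

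Muscle, blood and sex-linked genes differed between the wild-type pools in ways that the pooled test only partly shows. Of 50 muscle genes 38 were higher in the set A wild-type pool, with a median difference of 0.26 log2 units, while 14 were higher in the set A COUP-TFI-/- pool, with a median of -0.18. Only 5 were called higher in set A and 2 in set B. Myl1 was 0.80 higher in set A in wild-type and 0.20 lower in COUP-TFI-/-, and Acta1 was 0.97 and 0.01 higher. Among 19 erythroid genes 6 were called higher in set A, with Hba-a1 at 0.34 ± 0.10 (SE; adjusted p = 0.0171, limma) and Hbb-b2 at 0.63 ± 0.10 (adjusted p = 0.000238, limma), and 1 in set B. Xist, the X-inactivation transcript made in female cells, read 8.44, 8.62, 6.59 and 6.58 and was 1.69 ± 0.12 higher in set A (adjusted p = 9.27e-08, limma). Eif2s3y, on the Y chromosome, read 6.56, 6.60, 5.70 and 5.60 (an _f_at set) and was higher in set A too, by 0.57, and Kdm5d, also Y-linked, differed by 0.19 (adjusted p = 0.179, limma). The share of each sex in the pools is not given by the labels, and its part in any difference was not tested.

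**Figure D5:**
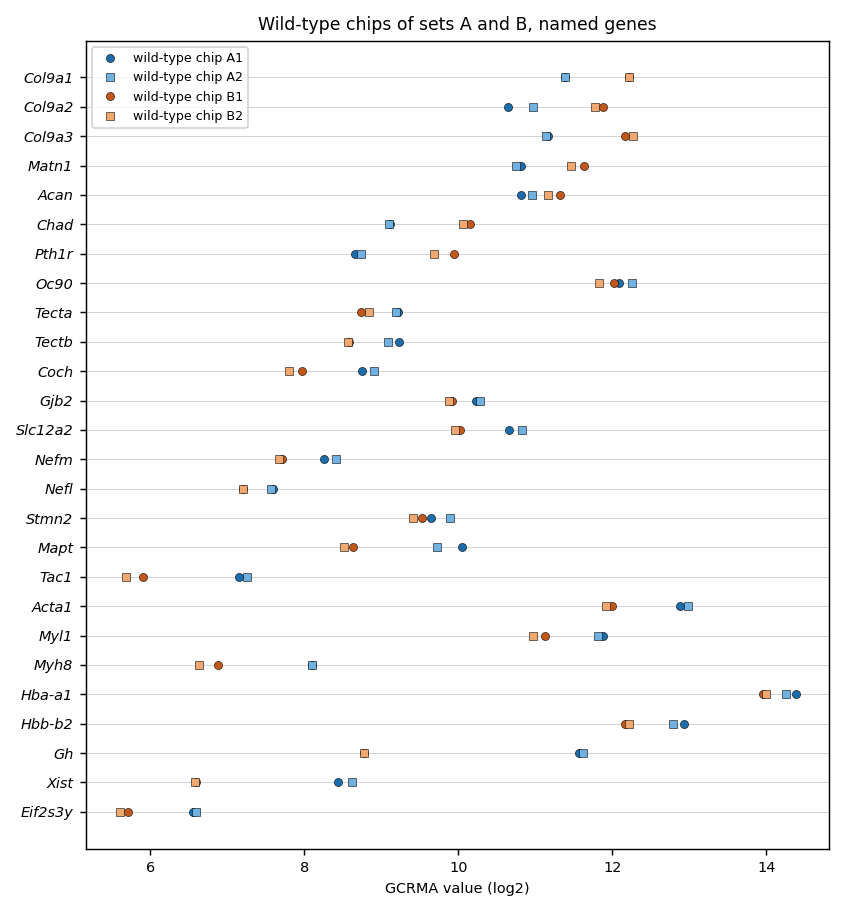
GCRMA values (x axis, log2) of 26 named genes on the 4 wild-type chips, with set A in blue and set B in orange. Cartilage genes from Col9a1 to Pth1r are higher in both set B chips, and most of the others, with Gh and Xist the farthest apart, in both set A chips.

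Several of the largest differences between the sets fell on genes of no single tissue. Dhx36, an RNA helicase, read 8.05, 8.05, 5.95 and 5.88 and differed by 1.94 ± 0.11 (SE; adjusted p = 9.18e-09, limma). Sf3b1, a core splicing factor, read 8.78, 8.76, 6.98 and 6.82 and differed by 1.88 ± 0.10 (adjusted p = 4.06e-09, limma). The other plain probe set of Sf3b1, about as bright with a mean of 7.79, had wild-type pool means of only 7.92 and 7.66. The large difference thus belongs to a single probe set of that gene. Nrip1, a nuclear receptor corepressor, and Akap9, a scaffold of the Golgi and centrosome, were higher in set A by 1.74 and 1.45. On the other side, Mdfi, an inhibitor of myogenic factors, read 9.18, 8.96, 10.38 and 10.22 (an _f_at set). The beta-actin set Actb was the farthest towards set B at -1.36 ± 0.17 (adjusted p = 3.65e-05, limma), with wild-type chips at 7.32, 6.65, 8.62 and 6.98, while the 3' beta-actin control set read 13.55, 13.51, 12.61 and 12.60 on the same chips, the opposite direction. Sets of the same gene thus disagreed in direction between the pools.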

How the data were processed

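RNA of 8 chips was read on Affymetrix MG-U74Av2 arrays, and a table with 16 columns of 12488 probe sets was used, 8 columns for each normalization. The authors normalized the raw chip data with GCRMA, which gave the deposited log2 values, and separately with dChip, which gave the deposited linear intensity values. Software versions and scanner settings are not given in the sources used here. Every column was mapped to its chip by the sample titles. Levels were GCRMA values of the 4 wild-type chips, averaged over duplicates to 2 pool means and then to 1 mean, without further normalization. Genes were named from the platform annotation, in which 10833 probe sets have 1 symbol, 396 several and 1193 none, and 10817 of the first kind matched RefSeq by gene identifier. Each gene was given by its brightest probe set, and 66 control sets were left out.

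Set A was compared with set B with limma 3.58.1 in R 4.3.3 (lmFit and eBayes, two-sided) on 4 pool means of both genotypes with genotype as a term. P-values were adjusted by Benjamini-Hochberg over 12422 probe sets and called under 0.05. The procedure was first run on simulated data in which few probe sets changed, by the same amount in both genotypes. These data differ in both respects, so that run does not show how accurate the calls are here. No test of genotype was made, and COUP-TFI-/- values are given only for the deleted gene and beside set differences. With 1 pool per genotype and set there is no replicate pool, so p-values do not measure the spread between like pools. The 1 residual degree of freedom holds how far the set difference disagrees between genotypes. Most of the weight lies on the prior of 14.3 shared by all probe sets. For dChip, values under 1 were set to 1, and in an alternative those under 16 were set to 16. Other alternatives were the probe set per gene, plain _at sets only, the background level, no genotype term, 8 chips with or without a replicate block, the wild-type chips alone, quantile normalization, a filter on low values and leaving out each chip. Tables were handled with Python 3.11.15, pandas 2.3.3 and numpy 2.4.6.

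The members, the 36 gene lists and the tests were chosen with earlier results of these data known. Genes were named by rule as the 30 with the highest mean, each list's defining markers, its 4 highest members and its 2 largest called set differences, and the 10 largest called set differences in each direction with the same sign in both genotypes and in dChip. Col10a1, Col11a1, Hba-x, Hbb-bh1, Hbb-y, Neurog1, Nr2f1, Rps15, Rps20 and Syp fall outside it and were chosen after their values were seen. No genome was given for these files, so no coordinates or sequences are printed.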

Additional observations from a re-analysis of the deposited data

Results flagged for a closer look

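In 4 of the genes described, 1 of the 4 wild-type chips lay far from the other 3, by the gap to its neighbour as a share of the whole range. The share was 0.91 for Col1a2, where chip A1 was high at 12.58, and 0.8855 for Igf2, where chip B2 was low at 14.14. It was 0.8295 for Pmp22, where chip A2 was low at 10.11, and 0.8827 for Tekt1, where chip A1 was low at 4.55. Over the 280 genes named by rule, 10 exceeded the 95% critical value of Dixon for 4 samples. With independent samples chance alone flags about 5% of groups. These chips are pairs of duplicates from the same pools, so that share need not hold here. In each of these 4 genes the whole range of the 4 chips was small.

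For 10 of the genes described, the set difference ran one way on every wild-type chip and the opposite way on every COUP-TFI-/- chip, and the difference between the genotypes in this respect was not tested. The larger ones were of muscle and pituitary. Myl1 was 0.7995 higher in set A in wild-type and 0.20 lower in COUP-TFI-/-. Tnnt3 was 0.7931 higher and 0.43 lower, and Pomc, the precursor of corticotropin, 0.6847 higher and 0.69 lower. Lyz2, the lysozyme of myeloid cells, was 0.1904 higher and 0.52 lower, and Cox6a1, a cytochrome oxidase subunit, 0.126 higher and 0.35 lower. In the other direction, the wild-type values of set A minus set B were -0.2148 for Pecam1, -0.1541 for Col3a1, -0.1232 for Top2a, -0.0522 for Dct and -0.04945 for Tpt1, with COUP-TFI-/- values from 0.08 to 0.26.

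Control sets that took no part in the levels also gave signal above the yeast controls at 4.40. The set for the 3' end of 18S ribosomal RNA, which has no poly(A) tail, had a mean of 7.6074 over the 4 wild-type chips, and the set for the B2 repeat, a short interspersed element present in many transcripts, had a mean of 13.3615.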

How the results depend on the processing

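With the background taken from organs outside the dissection, 4392 genes rather than 7920 were above it, and with plain _at sets alone 19 of the 30 highest genes stayed among the 30. Leaving out each wild-type chip gave 7894 to 7927 genes above background and kept 29 to 30 of the 30. Between the sets, dChip called 1449 probe sets (840 higher in set A and 609 in set B) in place of 3205 (1689 and 1516), and with dChip values under 16 raised to 16 the counts were 0, 0 and 0 by limma, with 3861 at an unadjusted p under 0.05; the cause was not tested. With the 8 chips as separate samples, whose spread is then partly that of duplicates, 5080 were called, 2663 of them higher in set B. With the chip number as a replicate block 4787 were called, 2500 of them higher in set B; same-numbered chips deviated with correlations from -0.218 to 0.281, so the numbers do not pair the pools. Leaving out each of the 8 chips gave 2046 to 3309 calls, 1194 to 1740 higher in set A and 852 to 1569 higher in set B. The lowest came without chip A1 of COUP-TFI-/-, and without chip B1 of wild-type 948 were higher in set B. The counts without a genotype term (2859), on the wild-type chips alone (3536), after quantile normalization (2664) and after the filter (3255) were within 1.5 times the first. Of 36 list medians, 21 moved by more than the spread between pools with dChip, 26 with the median over the probe sets of a gene and 18 with plain sets. The list median moved by over 1.5 times from its first value for macrophages alone, from 54.0 to 26.5 with the median over probe sets and to 33.8 with dChip. Signal over background limits low levels, since genes of absent organs reached 7.47 at their upper quartile.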
